A study of Mus musculus with 18 samples.

Results

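The levels of 10 genes that carry or sense metabolites made by gut microbes were followed in mouse kidney. They are the monocarboxylate carriers Slc16a1, Slc5a8 and Slc5a12, the aryl hydrocarbon receptor Ahr with its targets Cyp1a1, Cyp1b1 and Tiparp, and the bile acid receptor Nr1h4 with the bile acid carriers Slc10a2 and Slc51b. They were chosen by symbol, 10 of the 19545 genes in the table, and all 10 were found. The 18 libraries fell into 6 groups of 3, all of kidney from ICR mice (an outbred strain) aged 10 weeks. HS_AOS mice had a high fat diet, STZ (streptozotocin, a toxin of pancreatic beta cells) and AOS at 10 mg/kg, a compound that the labels do not spell out. HS_AOS_FMT and HS_control_FMT mice had the diet, STZ and an FMT (faecal microbiota transplantation), whose label reads AOS at 10 mg/kg or control. HS mice had the diet and STZ alone, AOS mice had AOS at 10 mg/kg without diet or STZ, and control mice carry no treatment in the labels. The series asks whether the FMT labelled with AOS alters what the diet and STZ do to the kidney. The labels name neither sex nor duration, and they leave it unsaid whether each of the 3 libraries in a group is a different mouse, so the spread behind the p-values may be technical.

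Bacteria in the gut ferment fibre to short-chain fatty acids, turn tryptophan into indoles and convert primary bile acids to secondary ones. Such products reach the kidney with the blood, are filtered, and are taken back by carriers of the proximal tubule, the nephron segment that reabsorbs most filtered solutes. Sodium-coupled and proton-coupled carriers move monocarboxylates. Indoles and kynurenines bind the aryl hydrocarbon receptor, a transcription factor that moves to the nucleus and switches on its target genes together with its partner Arnt. Bile acids bind Nr1h4, a nuclear receptor also called FXR, and cross the cell by an uptake carrier on the apical side and an exporter on the basolateral side.

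Promoter sequences are shown for the 3 target genes of the aryl hydrocarbon receptor, whose levels stand in for the receptor's activity in many studies, and for Slc10a2, the member with the smallest adjusted p-value in a comparison of 2 groups. Each runs 5′ to 3′ on the gene's own strand, from 250 bases before to 50 bases after the start site, from RefSeq on GRCm38.p6. Capitals mark GCGTG or its complement CACGC, the core bound by the receptor with Arnt, in the first 3, and ATTAAC, the complement of the half-site GTTAAT of the factor HNF1, in Slc10a2.
Cyp1a1: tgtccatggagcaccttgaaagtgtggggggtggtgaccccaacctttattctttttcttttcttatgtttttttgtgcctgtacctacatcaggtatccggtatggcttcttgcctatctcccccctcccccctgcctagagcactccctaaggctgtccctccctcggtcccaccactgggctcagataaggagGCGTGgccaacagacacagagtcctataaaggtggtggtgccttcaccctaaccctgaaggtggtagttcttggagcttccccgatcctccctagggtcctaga
Cyp1b1: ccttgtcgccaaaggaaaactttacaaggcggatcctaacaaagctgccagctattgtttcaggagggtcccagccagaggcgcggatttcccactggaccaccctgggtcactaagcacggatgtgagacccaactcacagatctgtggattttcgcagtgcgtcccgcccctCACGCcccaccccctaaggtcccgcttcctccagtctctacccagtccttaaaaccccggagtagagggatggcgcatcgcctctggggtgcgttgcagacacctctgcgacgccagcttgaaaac
Tiparp: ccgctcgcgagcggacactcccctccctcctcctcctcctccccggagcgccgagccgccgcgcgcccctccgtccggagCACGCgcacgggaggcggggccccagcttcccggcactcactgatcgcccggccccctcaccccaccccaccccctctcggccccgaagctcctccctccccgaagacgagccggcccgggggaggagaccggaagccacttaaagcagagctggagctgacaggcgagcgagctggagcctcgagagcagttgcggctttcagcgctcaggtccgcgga
Slc10a2: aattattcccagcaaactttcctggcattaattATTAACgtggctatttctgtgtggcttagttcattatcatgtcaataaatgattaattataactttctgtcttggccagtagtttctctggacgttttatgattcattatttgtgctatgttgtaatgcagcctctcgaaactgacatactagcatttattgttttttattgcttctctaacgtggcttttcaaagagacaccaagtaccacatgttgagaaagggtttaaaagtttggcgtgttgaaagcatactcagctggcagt
The windows were chr9:57697363-57697662 (plus strand) for Cyp1a1, chr17:79715012-79715311 (minus strand) for Cyp1b1, chr3:65528197-65528496 (plus strand) for Tiparp and chr8:5105238-5105537 (minus strand) for Slc10a2. That of Cyp1a1 lies inside the gene's annotated span, which begins further upstream. The first base of the core lay at position -54 in Cyp1a1, -76 in Cyp1b1 and -170 in Tiparp, and the half-site of Slc10a2 lay at -217, counted from the start site. Both strands were searched. GCGTG is common, since 32.4% of 32851 promoter windows of that length held it on one strand or the other. It was also found in Slc16a1 (2 matches), Slc5a8 and Slc10a2. GTTAAT was found in 7.1% of the windows, and among the members in Nr1h4 at -40 besides Slc10a2. The inverted repeat IR-1 in its strict form, bound by the bile acid receptor, was in 3 of the windows and in no member's. Of the 10 genes, 8 had a promoter in the table. A match of letters is a description and not a binding site.

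Levels are given in FPKM, a unit corrected for transcript length and sequencing depth, as the authors deposited them. The table holds no read counts. A rough estimate took the most frequent low value of short genes, times length and within a fixed window, as 1 read. It gave 9.76 to 12.1 M reads a library. Whether values also gathered at multiples of that step was not checked, so the depth remains unknown. Differences are on the scale of log2(FPKM + 1), the first-named group minus the second, from limma over all 18 libraries, with p-values adjusted by Benjamini and Hochberg over the 12385 genes that reached 1 FPKM in at least 3 libraries, and with 0.05 as the threshold. This scale understates changes of genes at low levels. Of the 10 genes, 9 were tested; Cyp1a1 reached 1 FPKM in 0 libraries.

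Some libraries held transcripts of other organs. Summed FPKM of 10 adrenal markers (9 of them tested), which include the steroid enzymes Cyp11b1 and Cyp21a1, lay between 0.97 and 1.57 in HS_AOS, 5.09 and 247 in HS_AOS_FMT, 1.08 and 1.31 in HS_control_FMT, 1.59 and 372 in HS, 1.09 and 1.81 in AOS, and 1.2 and 527 in control libraries. The sums over 100 came from HS_AOS_FMT replicate 2, HS replicate 3 and control replicate 3. Control replicate 3 also stood apart across the tested genes, with correlations of 0.947 to 0.965 to the other libraries. Its sum of 6 early proximal tubule markers, 2661 FPKM, was the lowest of the 18 (the others lay between 3067 and 4418). Where a member's difference from control is named below, its value without control replicate 3 is given too. Summed FPKM of 4 testis markers did not exceed 0.47 in any library of the other 5 groups and lay between 26.1 and 37.1 in control libraries. All 4 were among the 8 genes that passed the threshold in HS vs control, and among the 8 in AOS vs control, each time higher in control. They were also among the 9 that passed for the change of the AOS difference between HS and control mice. The part of testis transcripts in the members' differences from control was not tested. Of 6 ileum markers, which could point to carriage of gut tissue, Fabp6 was listed at 0 in all 18 libraries, Apoa4 lay between 0.48 and 3.55 FPKM, and none of the others exceeded 0.12 FPKM. Summed FPKM of 5 adipose markers (4 tested) lay between 5.36 and 27.3 in HS_AOS, 17.2 and 196 in HS_AOS_FMT, 34.6 and 229 in HS_control_FMT, 1.15 and 167 in HS, 5.8 and 63.5 in AOS, and 7.63 and 51.2 in control libraries. Sums of 6 liver markers (3 tested) lay between 8.49 and 35.1 in HS_AOS, 8.88 and 11.4 in HS_AOS_FMT, 11 and 37.6 in HS_control_FMT, 7.47 and 61.9 in HS, 6.58 and 58.2 in AOS, and 6.39 and 15.8 in control libraries. Leaving out the 3 libraries with adrenal sums over 100 gave log2 differences in HS vs control of 1.29 for Cyp1b1 (limma's adjusted p = 0.302) and 0.46 for Slc5a12 (0.572). In HS_AOS_FMT vs HS it gave -1.17 for Slc16a1 (adjusted p = 0.401). HS_AOS_FMT replicate 3, with an adrenal sum of 42.5, stayed in that fit. Beyond this, the part of these tissues in the members' values was not tested. Levels come from whole kidney, so fewer cells of a type and less RNA per cell cannot be told apart.

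No member passed the test in any comparison. The count was 0 of 9 in HS_AOS vs HS, where 2.3% of all tested genes passed, and 0 of 9 in HS_AOS_FMT vs HS, where 0.977% passed. It was 0 of 9 in HS_control_FMT vs HS (0.751% of all genes), in HS_AOS_FMT vs HS_control_FMT (3.99%), in HS vs control (0.0646%) and in AOS vs control (0.0646%). The change of the AOS difference between HS and control mice, an interaction, passed in 0 of 9 members, against 0.0727% of all genes. The genes that passed in HS vs control, in AOS vs control and in the interaction included all 4 testis markers. A test for any difference among the 6 groups passed in 0 of 9 members, against 8.21% of all genes. The shares of all genes moved with the processing. Those in HS_AOS vs HS and HS_AOS_FMT vs HS stood for 285 and 121 genes. Without the 3 adrenal-rich libraries 0 and 1 passed there. After correction for GC content and transcript length 19 and 28 passed, and after quantile normalization 477 and 176. At an unadjusted p under 0.05 the members counted 1 of 9 in HS_AOS vs HS (20.3% of all genes), 1 in HS_AOS_FMT vs HS (18.1%), 0 in HS_control_FMT vs HS (15.2%), 2 in HS_AOS_FMT vs HS_control_FMT (19.8%), 0 in HS vs control (6.63%) and 1 in AOS vs control (7.28%). For the interaction it was 0 of 9 against 15% of all genes, and for any difference 2 of 9 against 28.8%. The members' shares thus lay near or below those of all genes. The median log2 difference over the 9 tested members ran from -0.14 to 0.17 over the 6 comparisons of 2 groups, beside -0.09 to 0.07 over all tested genes.

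**Figure D1:**
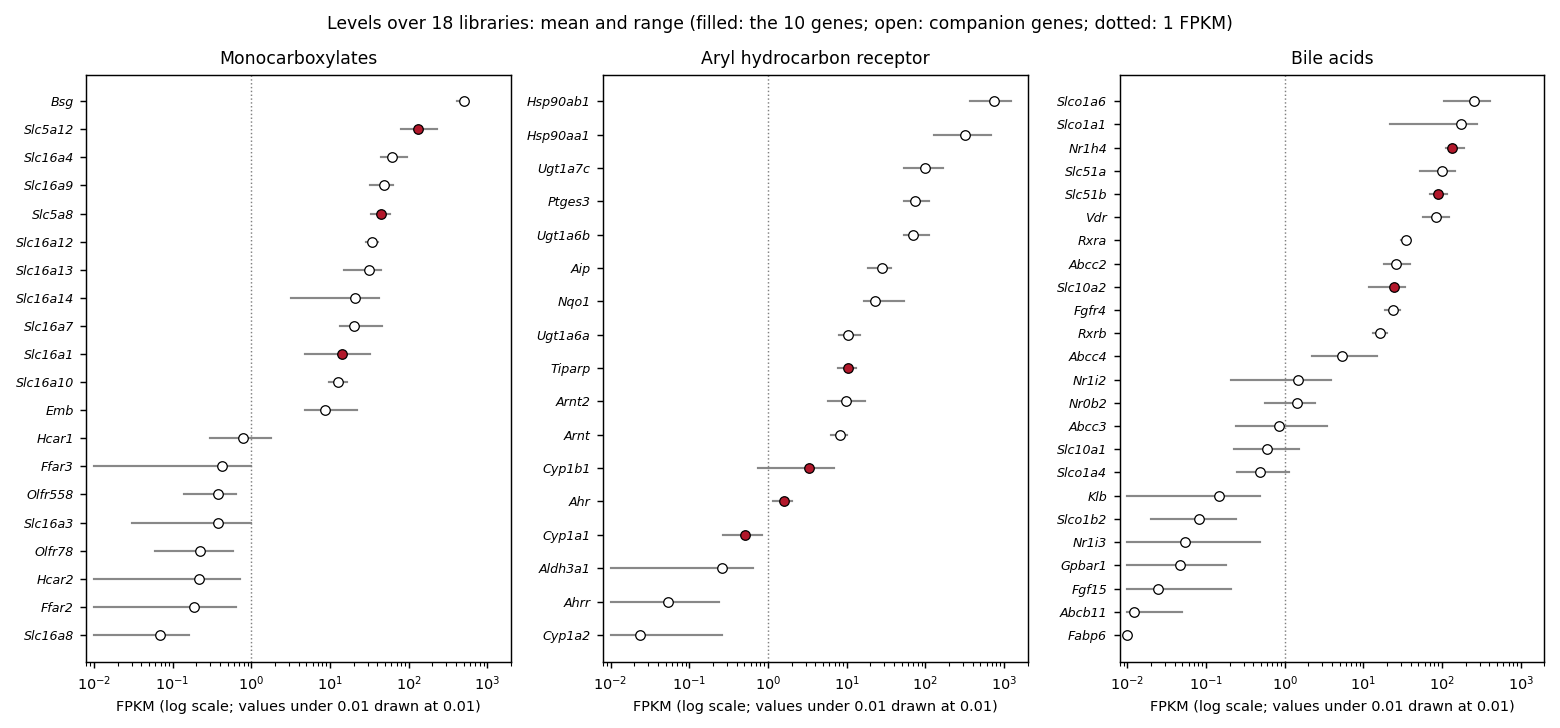
Levels of the 10 genes (filled points) and of companion genes from fixed lists (open points) in FPKM on a log axis, drawn as the mean over the 18 libraries with a line for the range. The carriers Slc5a12 and Slc51b and the receptor Nr1h4 stood near 100 FPKM, while Ahr averaged 1.58 FPKM and Cyp1a1 0.503 FPKM.

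The plot of levels spans more than 2 orders of magnitude. Averaged over the 18 libraries, Nr1h4 had 136 FPKM and Slc5a12 131 FPKM, higher than 96.4% and 96.2% of all genes in the table. Slc51b averaged 87.8 FPKM, Slc5a8 44.7 FPKM and Slc10a2 24.3 FPKM. Slc16a1 averaged 14.1 FPKM and Tiparp 10.3 FPKM, while Cyp1b1 averaged 3.27 FPKM, Ahr 1.58 FPKM and Cyp1a1 0.503 FPKM. The tubular carriers and the bile acid receptor were thus the abundant members, and the aryl hydrocarbon receptor and its P450 targets the rare ones.

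**Figure D2:**
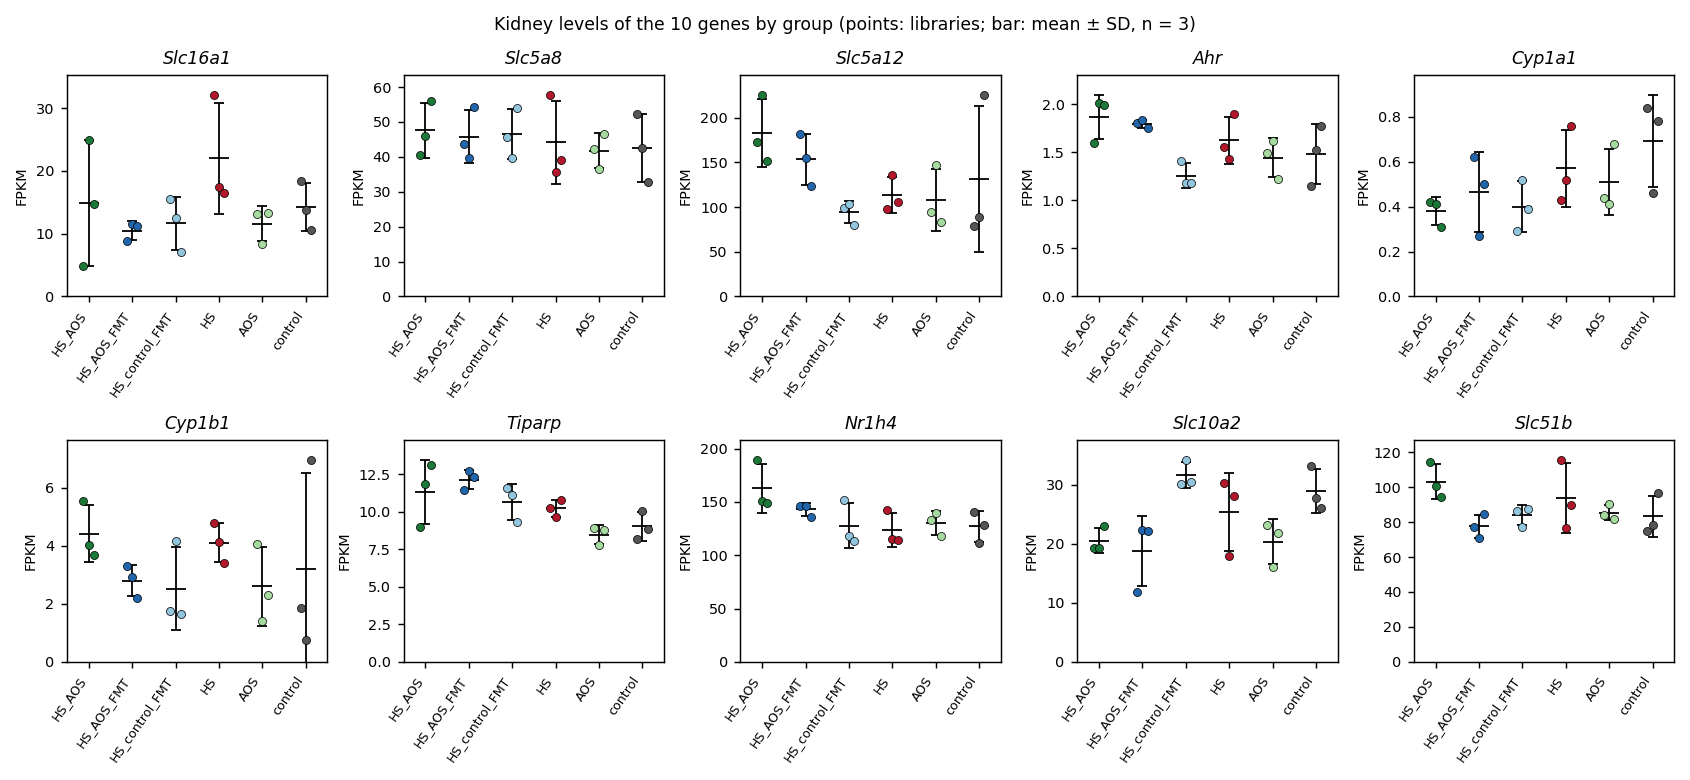
FPKM of the 10 genes in the 6 groups; each point is a library and each bar the mean ± SD of 3. Slc10a2 lay between 11.9 and 22.3 in HS_AOS_FMT libraries, below all 3 HS_control_FMT libraries (30.2 to 34.2), and control replicate 3 set the highest Cyp1b1 value.

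Among the monocarboxylate carriers, Slc16a1 (chr3:104638664-104658462 on GRCm38), also called MCT1, moves lactate, pyruvate and short-chain fatty acids with a proton. Slc16a1 had 4.8, 24.9 and 14.8 FPKM in HS_AOS, 8.83, 11.5 and 11.2 FPKM in HS_AOS_FMT and 15.5, 12.4 and 7.14 FPKM in HS_control_FMT libraries, against 32.1, 17.5 and 16.4 FPKM in HS libraries. AOS libraries had 13.1, 8.36 and 13.3 FPKM, against 18.3, 13.8 and 10.6 FPKM in control libraries. All 3 HS_AOS_FMT libraries and all 3 HS_control_FMT libraries lay below all 3 HS libraries, while HS_AOS spanned the range from the lowest library of the 18 to the second highest. The difference of HS_AOS_FMT from HS was -0.94 on the log2 scale (95% interval -1.87 to -0.01), with limma's adjusted p = 0.271. Over 28 alternatives that difference ran from -1.17 to -0.65 and the adjusted p from 0.102 to 0.52. The difference of HS_control_FMT from HS was -0.86 (-1.79 to 0.08, adjusted p = 0.37), and that of HS_AOS_FMT from HS_control_FMT was -0.09 (-1.02 to 0.84). Without HS replicate 1, the highest library, HS_control_FMT vs HS was -0.56. HS vs control was 0.56 (-0.37 to 1.49, adjusted p = 0.876), 0.38 without control replicate 3 and 0.26 without HS replicate 1, and the groups overlapped. Values of Slc16a1 differed 6.7-fold between libraries, the widest spread of the carriers.

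Slc5a8 (chr10:88885992-88929515), also called SMCT1, takes up monocarboxylates with sodium at high affinity. Its group means varied least of the 10 genes. Slc5a8 had 40.6, 46.1 and 56.0 FPKM in HS_AOS, 43.6, 39.6 and 54.2 FPKM in HS_AOS_FMT and 45.7, 39.7 and 54.0 FPKM in HS_control_FMT libraries, against 57.8, 35.5 and 39.2 FPKM in HS libraries. In AOS libraries Slc5a8 was at 42.3, 36.6 and 46.5 FPKM, against 52.3, 42.4 and 32.9 FPKM in control libraries. Every pair of groups overlapped, and the highest group mean was 1.14 times the lowest. Its 6 log2 differences between groups ran from -0.02 to 0.12, and the interval for HS vs control was -0.38 to 0.47. Without control replicate 3, HS vs control was -0.12 and AOS vs control -0.18.

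Slc5a12 (chr2:110597299-110649345), also called SMCT2, is the low-affinity sodium-coupled carrier of lactate and related acids on the proximal tubule's brush border. Slc5a12 had 172, 226 and 152 FPKM in HS_AOS, 182, 155 and 124 FPKM in HS_AOS_FMT and 99.6, 104 and 80.6 FPKM in HS_control_FMT libraries, against 98.1, 136 and 106 FPKM in HS libraries. Without diet and STZ, Slc5a12 had 94.3, 148 and 83.0 FPKM in AOS and 79.1, 89.1 and 226 FPKM in control libraries. All 3 HS_AOS libraries lay above all 3 HS libraries, and all 3 HS_AOS_FMT libraries above all 3 HS_control_FMT libraries. Both differences were 0.69 on the log2 scale with an interval of 0.00 to 1.37, at limma's adjusted p of 0.248 and 0.253. Control replicate 3 held 226 FPKM, against 79.1 and 89.1 FPKM in the other control libraries. HS vs control was -0.06 with that library and 0.41 without it (adjusted p = 0.458). AOS vs control was -0.15 with it and 0.32 without it. For any difference among the 6 groups the adjusted p was 0.235 with it and 0.0183 without it. The change of the AOS difference between HS and control mice was 0.84 (-0.13 to 1.81). Over 28 alternatives that change ran from 0.325 to 1.12. The sums of the 6 early proximal tubule markers, beside these values, lay between 3521 and 4418 FPKM in HS_AOS, 3606 and 4259 in HS_AOS_FMT, 3067 and 3504 in HS_control_FMT, 3203 and 3975 in HS, 3742 and 4046 in AOS, and 2661 and 3889 in control libraries. Their part in the Slc5a12 values was not tested.

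Of 9 tested companions among 11 carriers and chaperones of monocarboxylates, 1 passed in HS_AOS vs HS and 1 in HS_AOS_FMT vs HS, in both cases Slc16a12, with none lower, and none passed in the other 4 comparisons. Slc16a12, a creatine carrier of the same family, had 33.6, 39.6 and 38.0 FPKM in HS_AOS and 40.8, 39.7 and 38.2 FPKM in HS_AOS_FMT, against 28.9, 31.2 and 28.3 FPKM in HS libraries. It rose in HS_AOS vs HS by 0.32 (SE 0.079, limma's adjusted p = 0.0471) and in HS_AOS_FMT vs HS by 0.41 (SE 0.079, adjusted p = 0.0354), with no overlap in either. The calls were kept in 6 and 12 of 28 alternatives, and a correction of every library for GC content and transcript length gave adjusted p-values of 0.304 and 0.151. The median log2 difference over the list ran from -0.16 to 0.25 over the 6 comparisons. Bsg, the chaperone that carries Slc16a1 to the membrane, averaged 503 FPKM, and Slc16a3, the lactate exporter of glycolytic cells, 0.372 FPKM. The receptors for the same acids were scarcely detected. Only Hcar1, the lactate receptor, reached the filter among 6 of them, with a mean of 0.783 FPKM, while the short-chain fatty acid receptors Ffar2 and Ffar3 did not exceed 0.64 and 1 FPKM in any library.

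Of 8 synthetases that couple short- and medium-chain acids to coenzyme A, 7 were tested and none passed in any of the 6 comparisons (medians from 0.04 to 0.23). They were abundant, with Acsm2 at 1020 FPKM, Acsm3 at 451 FPKM and Acss2, which makes acetyl-CoA from acetate, at 136 FPKM on average. Acsm3 ranged from 66.2 to 780 FPKM over the libraries.

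In the sensing of indoles, Ahr (chr12:35497979-35534989) was low, between 1.15 and 2.01 FPKM over the libraries. Ahr had 1.6, 2.01 and 1.99 FPKM in HS_AOS, 1.8, 1.83 and 1.75 FPKM in HS_AOS_FMT and 1.41, 1.18 and 1.18 FPKM in HS_control_FMT libraries, against 1.55, 1.43 and 1.9 FPKM in HS libraries. AOS libraries had 1.49, 1.62 and 1.22 FPKM, against 1.15, 1.52 and 1.77 FPKM in control libraries. All 3 HS_AOS_FMT libraries lay above all 3 HS_control_FMT libraries, and all 3 HS_control_FMT libraries lay below all 3 HS libraries. HS_AOS_FMT exceeded HS_control_FMT by 0.31 on the log2 scale (0.06 to 0.56), at an unadjusted p of 0.0201 and limma's adjusted p of 0.158. After the correction for GC content and length that difference was 0.18. Against HS, the difference of HS_control_FMT was -0.22 (-0.47 to 0.04) and that of HS_AOS_FMT 0.09 (-0.16 to 0.35). HS and control overlapped, with a difference of 0.09 (-0.17 to 0.34), and of 0.17 without control replicate 3.

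Cyp1a1 (chr9:57687928-57703824), the P450 enzyme most strongly induced by the receptor, stayed under 1 FPKM throughout. Cyp1a1 had 0.42, 0.41 and 0.31 FPKM in HS_AOS, 0.62, 0.27 and 0.5 FPKM in HS_AOS_FMT and 0.29, 0.52 and 0.39 FPKM in HS_control_FMT libraries, against 0.43, 0.52 and 0.76 FPKM in HS libraries. In AOS libraries Cyp1a1 was at 0.44, 0.41 and 0.68 FPKM, against 0.84, 0.46 and 0.78 FPKM in control libraries. The highest library was 0.84 FPKM in control replicate 1, and every compared pair of groups overlapped except HS_AOS with HS, where all 3 HS_AOS libraries lay below all 3 HS libraries. If the most frequent low value of short genes is 1 read, which was not checked, these levels stand for 7.9 to 24 reads a library. In a fit without the filter HS_AOS vs HS was -0.18 (-0.44 to 0.07) and HS_AOS_FMT vs HS_control_FMT was 0.06 (-0.19 to 0.31).

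Cyp1b1 (chr17:79706940-79715061), a related P450 enzyme found in stromal as well as epithelial cells, varied most of the 10 genes, 9.28-fold between libraries. Cyp1b1 had 5.53, 4.02 and 3.7 FPKM in HS_AOS, 3.29, 2.91 and 2.21 FPKM in HS_AOS_FMT and 1.74, 4.18 and 1.64 FPKM in HS_control_FMT libraries, against 4.79, 4.12 and 3.42 FPKM in HS libraries. Without diet and STZ, Cyp1b1 had 4.07, 1.4 and 2.32 FPKM in AOS and 1.84, 0.75 and 6.96 FPKM in control libraries. Control replicates 2 and 3 were the lowest and the highest library of all 18. All 3 HS_AOS_FMT libraries lay below all 3 HS libraries, with a log2 difference of -0.43 (-1.34 to 0.49). HS vs control was 0.58 (-0.34 to 1.49, limma's adjusted p = 0.872), 1.19 without control replicate 3 (adjusted p = 0.176) and 0.10 without control replicate 2. AOS vs control was 0.01 (-0.90 to 0.92), and 0.62 without control replicate 3. Summed FPKM of 4 fibroblast and mural cell markers lay between 55.1 and 80.3 in HS_AOS, 51.4 and 70 in HS_AOS_FMT, 27.1 and 56.4 in HS_control_FMT, 43 and 84.9 in HS, 45.3 and 67 in AOS, and 60.9 and 130 in control libraries, with the highest in control replicate 3. Their part in the Cyp1b1 values was not tested.

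Tiparp (chr3:65528447-65555518), an ADP-ribosyltransferase that is induced by the receptor and dampens it, averaged between 10.2 and 12.1 FPKM in the 4 groups with diet and STZ, and 8.48 FPKM in AOS and 9.03 FPKM in control mice. Tiparp had 8.99, 11.9 and 13.1 FPKM in HS_AOS, 11.4, 12.7 and 12.3 FPKM in HS_AOS_FMT and 11.6, 11.1 and 9.29 FPKM in HS_control_FMT libraries, against 10.3, 9.68 and 10.8 FPKM in HS libraries. AOS libraries had 8.89, 7.76 and 8.79 FPKM, against 8.16, 10.1 and 8.84 FPKM in control libraries. All 3 HS_AOS_FMT libraries lay above all 3 HS libraries, with a log2 difference of 0.22 (-0.03 to 0.48, limma's adjusted p = 0.344). After the correction for GC content and length it was 0.10. HS vs control was 0.17 (-0.09 to 0.42) with an overlap, and AOS vs control was -0.08 (-0.33 to 0.18); without control replicate 3 they were 0.16 and -0.09. For any difference among the 6 groups the adjusted p was 0.0837, and 0.0218 without HS_AOS replicate 1.

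**Figure D3:**
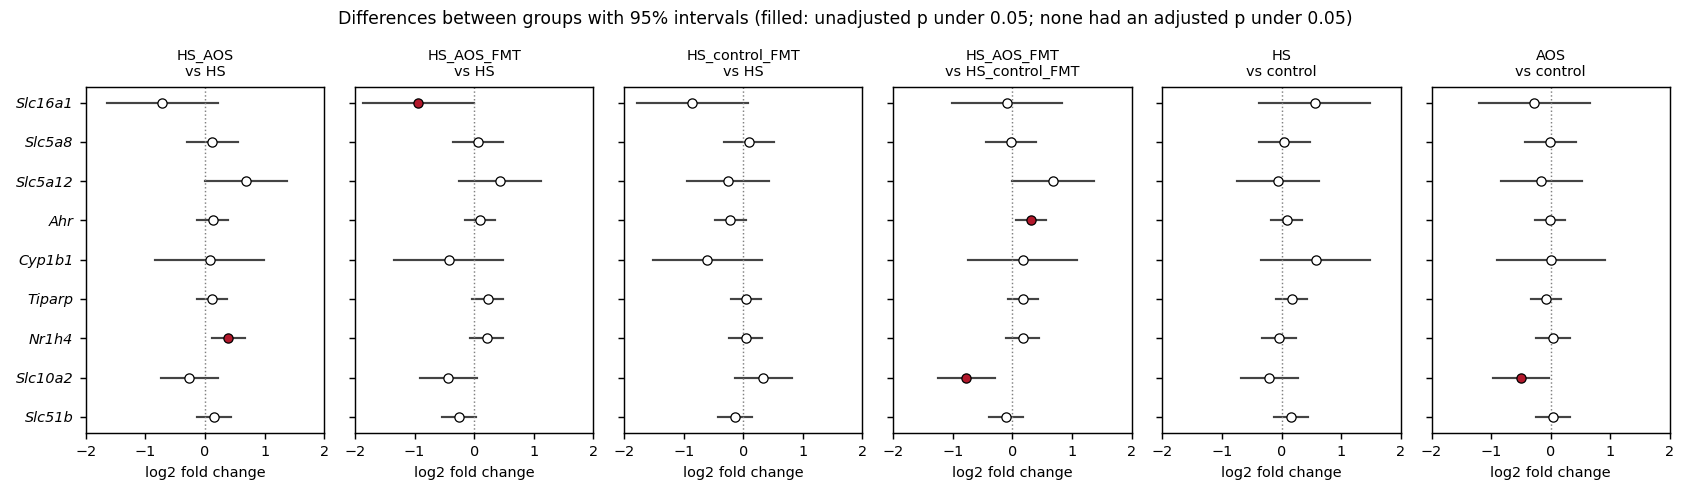
Log2 differences between groups (points) with 95% intervals (lines) for the 9 tested genes, in 6 comparisons named above the panels, the first group minus the second. Filled points had an unadjusted p under 0.05, as Slc10a2 did in HS_AOS_FMT vs HS_control_FMT at -0.77; no point had an adjusted p under 0.05.

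The plot of differences shows that the intervals are narrow for Ahr, Tiparp, Nr1h4 and Slc51b, with standard errors of 0.119 to 0.134, and wide for Slc16a1 and Cyp1b1, with standard errors of 0.435 and 0.428. A difference of 1 on the scale of log2(FPKM + 1) lay outside every interval of Ahr, Tiparp, Nr1h4 and Slc51b. Ahr averaged 1.58 FPKM, where the added 1 shrinks differences and intervals alike, so its intervals cannot be set beside those of abundant genes.

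Among 7 partners and chaperones of the aryl hydrocarbon receptor, 6 were tested and 1 passed in HS_AOS_FMT vs HS_control_FMT, lower, with none in the other 5 comparisons. It was Ptges3, the co-chaperone p23, with 61.5, 69.0 and 76.9 FPKM in HS_AOS_FMT, against 109, 110 and 92.9 FPKM in HS_control_FMT libraries. The difference was -0.59 (SE 0.121, limma's adjusted p = 0.0191), without overlap. The chaperones Hsp90ab1 and Hsp90aa1, which hold the receptor in the cytosol and serve many other proteins, had differences of -0.80 (adjusted p = 0.0604) and -1.10 (adjusted p = 0.0908) in that comparison. For any difference among the 6 groups Ptges3 (adjusted p = 0.0146) and Hsp90ab1 (0.0367) passed, in 25 and 9 of 27 alternatives too. Hsp90ab1 had 1185, 1222 and 1167 FPKM in HS_control_FMT libraries, above all 15 others. The partner Arnt averaged 8.14 FPKM, and the repressor Ahrr did not exceed 0.24 FPKM. The list's median log2 difference ran from -0.39 in HS_AOS_FMT vs HS_control_FMT to 0.21 in HS_control_FMT vs HS, where those of all genes were 0.07 and -0.08. Of 7 other targets, 4 were tested and none passed (medians from -0.19 to 0.22), and Cyp1a2 did not exceed 0.26 FPKM.

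Of 9 enzymes from tryptophan to kynurenine and beyond, which make other ligands of the receptor, 7 were tested and none passed in the 6 comparisons (medians from -0.01 to 0.29). For any difference among the groups Aadat passed (limma's adjusted p = 0.00769), the enzyme that turns kynurenine into kynurenic acid. Aadat had 104, 112 and 130 FPKM in HS_AOS, 128, 179 and 174 FPKM in HS_AOS_FMT and 137, 113 and 188 FPKM in HS_control_FMT libraries, against 108, 121 and 118 FPKM in HS libraries. In AOS libraries Aadat was at 255, 235 and 185 FPKM, against 218, 228 and 217 FPKM in control libraries. All libraries of HS_AOS, HS_AOS_FMT and HS lay below all 3 of AOS and all 3 of control, and 1 HS_control_FMT library overlapped those of AOS. Aadat passed in all 27 alternatives of this test. HS vs control was -0.93 (-1.29 to -0.57), at an unadjusted p of 6.102e-05 and an adjusted p of 0.0756, and AOS vs control was 0.01 (-0.35 to 0.38, adjusted p = 0.979). Without control replicate 3, Aadat was at -0.94 in HS vs control (adjusted p = 0.114) and at 0.00 in AOS vs control. None of the 5 tested of 6 genes that handle indoxyl and cresyl sulphate passed (medians from -0.03 to 0.36). Among these Slc22a6, an uptake carrier of organic anions, averaged 533 FPKM, and Slc22a8 157 FPKM.

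**Figure D4:**
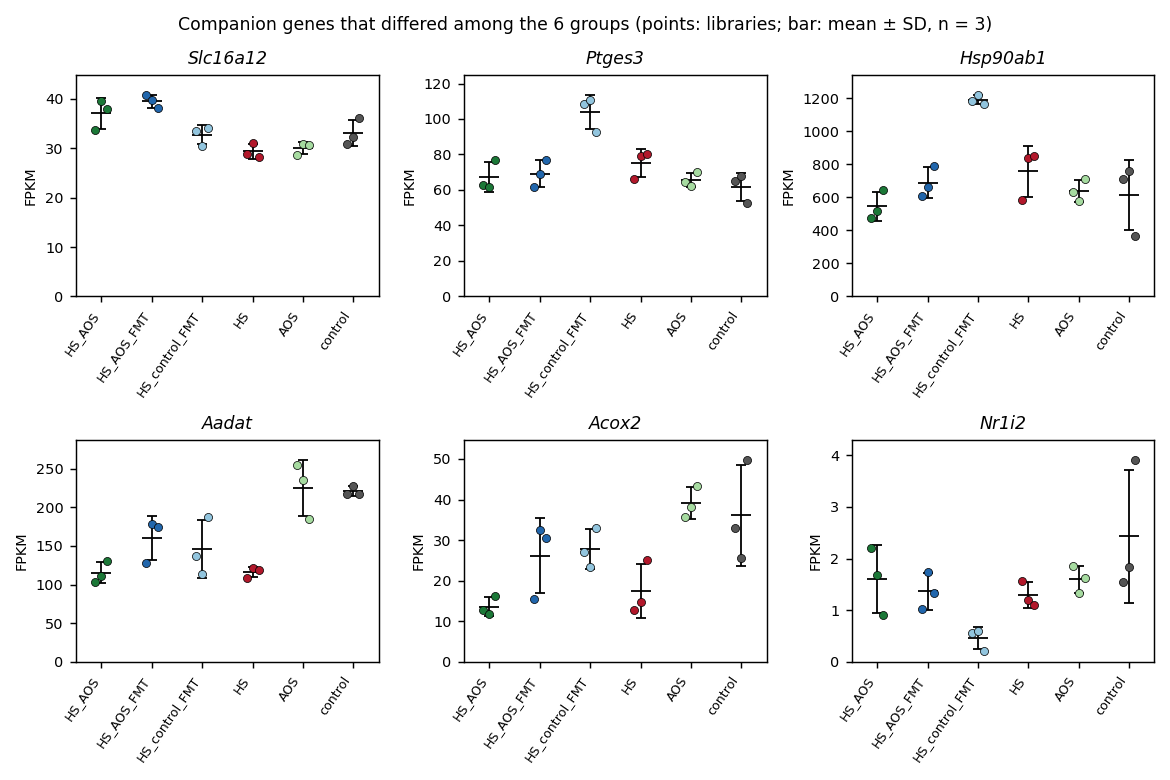
FPKM of 6 companion genes that passed the test for any difference among the 6 groups; each point is a library and each bar the mean ± SD of 3. Ptges3 and Hsp90ab1 were highest in HS_control_FMT, and Aadat and Acox2 averaged less in the 4 groups with diet and STZ than in AOS and control.

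In the sensing of bile acids, Nr1h4 (chr10:89454234-89533645) was among the most abundant members. Nr1h4 had 189, 151 and 149 FPKM in HS_AOS, 147, 146 and 136 FPKM in HS_AOS_FMT and 152, 118 and 113 FPKM in HS_control_FMT libraries, against 143, 116 and 114 FPKM in HS libraries. Without diet and STZ, Nr1h4 had 133, 140 and 118 FPKM in AOS and 141, 112 and 128 FPKM in control libraries. All 3 HS_AOS libraries lay above all 3 HS libraries. The difference was 0.39 on the log2 scale (0.11 to 0.67), at an unadjusted p of 0.00968 and limma's adjusted p of 0.117. HS_AOS_FMT vs HS was 0.21 (-0.07 to 0.49) and AOS vs control 0.04 (-0.24 to 0.32), both with overlap. The change of the AOS difference between HS and control mice was 0.35 (-0.05 to 0.75, adjusted p = 0.391). HS vs control was -0.04 (-0.32 to 0.25). Without control replicate 3, Nr1h4 was at 0.05 in AOS vs control, at 0.34 in the interaction and at -0.03 in HS vs control.

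Slc10a2 (chr8:5083219-5105287), also called ASBT, takes up bile acids with sodium in the ileum and at the tubule's brush border; its promoter is printed above. Slc10a2 had 19.2, 19.3 and 23.0 FPKM in HS_AOS, 11.9, 22.3 and 22.2 FPKM in HS_AOS_FMT and 30.2, 34.2 and 30.5 FPKM in HS_control_FMT libraries, against 30.3, 17.9 and 28.1 FPKM in HS libraries. AOS libraries had 23.2, 16.0 and 21.9 FPKM, against 33.2, 27.7 and 26.1 FPKM in control libraries. All 3 HS_AOS_FMT libraries lay below all 3 HS_control_FMT libraries, and all 3 AOS libraries below all 3 control libraries. The log2 difference of HS_AOS_FMT from HS_control_FMT was -0.77 (SE 0.223, interval -1.25 to -0.30), at an unadjusted p of 0.00351 and limma's adjusted p of 0.0666. That adjusted p ran from 0.0289 to 0.217 over 28 alternatives and was under 0.05 in 4 of them. One of these was the correction for GC content and length, which gave -0.91 and an adjusted p of 0.0289; without control replicate 3 it was 0.0483 and without HS replicate 2 it was 0.0491. Without HS_AOS_FMT replicate 1, the lowest library, the difference was -0.49 and the adjusted p 0.217. AOS vs control was -0.50 (-0.97 to -0.02, unadjusted p = 0.0412, adjusted p = 0.674), and -0.57 without control replicate 3. Against HS, HS_AOS_FMT was at -0.44 (-0.91 to 0.04), or -0.15 without its replicate 1, and HS_control_FMT at 0.34 (-0.14 to 0.81), both with overlap. Slc5a12, also a carrier of the brush border, was at 0.69 in HS_AOS_FMT vs HS_control_FMT (adjusted p = 0.253). Neither Slc10a2 nor Slc5a12 passed the threshold there. Summed FPKM of 5 markers of the straight proximal tubule lay between 836 and 1109 in HS_AOS_FMT, against 883 and 1145 in HS_control_FMT libraries. The sums of the 6 early proximal tubule markers lay between 3606 and 4259, against 3067 and 3504, without overlap. In that comparison 29.3% of all tested genes did not overlap, and 0 of the 6 markers passed. Slc34a1 alone averaged 2560 FPKM over the 18 libraries and made up most of these sums. The part of tubule markers in the Slc10a2 values was not tested.

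Slc51b (chr9:65412753-65422773) is the beta subunit of the bile acid exporter on the basolateral side. Slc51b had 114, 100 and 94.6 FPKM in HS_AOS, 76.9, 71.1 and 84.6 FPKM in HS_AOS_FMT and 86.5, 77.2 and 87.7 FPKM in HS_control_FMT libraries, against 116, 76.5 and 89.6 FPKM in HS libraries. In AOS libraries Slc51b was at 84.0, 90.1 and 81.8 FPKM, against 75.0, 78.3 and 96.9 FPKM in control libraries. Every pair of compared groups overlapped. Its differences ran from -0.26 in HS_AOS_FMT vs HS (-0.54 to 0.03, limma's adjusted p = 0.333) to 0.16 in HS vs control (-0.13 to 0.44), which was 0.27 without control replicate 3. After the correction for GC content and length, HS_AOS_FMT vs HS was -0.05. HS_AOS vs HS, at 0.15 before that correction, was then 0.40 (adjusted p = 0.183). The alpha subunit Slc51a averaged 98.8 FPKM, close to the 87.8 FPKM of Slc51b. Slc51a ranged from 53.2 to 146 FPKM over the libraries.

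Of 10 other receptors and partners for bile acids 6 were tested, and of 11 other carriers 6 were tested; none passed in the 6 comparisons. Medians ran from -0.14 to 0.16 for the receptors and from -0.23 to 0.41 for the carriers. Nr0b2, the repressor that Nr1h4 induces in liver and gut, averaged 1.42 FPKM, and Rxra, the partner of Nr1h4, 34.8 FPKM. The membrane receptor Gpbar1 did not exceed 0.18 FPKM. Nr1i2, a receptor of xenobiotics and bile acids, passed for any difference among the groups (limma's adjusted p = 0.0498, and under 0.05 in 10 of 26 alternatives), with 0.56, 0.59 and 0.21 FPKM in HS_control_FMT libraries, below all 15 others. Of 9 enzymes of bile acid synthesis and conjugation 5 were tested and none passed in the 6 comparisons (medians from -0.17 to 0.21). Acox2, a peroxisomal oxidase that shortens the bile acid side chain, passed for any difference (adjusted p = 0.0253, and under 0.05 in 23 of 27 alternatives). Acox2 had 12.8, 11.7 and 16.3 FPKM in HS_AOS, 15.5, 32.4 and 30.5 FPKM in HS_AOS_FMT and 27.0, 23.4 and 33.0 FPKM in HS_control_FMT libraries, against 12.7, 14.8 and 25.1 FPKM in HS libraries. Without diet and STZ, Acox2 had 35.7, 38.0 and 43.4 FPKM in AOS and 32.9, 25.6 and 49.8 FPKM in control libraries. Its HS vs control difference was -1.01 (adjusted p = 0.501), or -0.76 without control replicate 3, and all libraries of HS_AOS and of HS lay below all libraries of AOS and of control.

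By group mean, HS_AOS ranked highest for Slc5a8, Slc5a12, Ahr, Cyp1b1, Nr1h4 and Slc51b. HS ranked highest for Slc16a1, HS_AOS_FMT for Tiparp, HS_control_FMT for Slc10a2 and control for Cyp1a1. How often each group ranked highest over all genes was not counted, so these orders say nothing particular to the members. Neighbours in these orders mostly differed by less than the larger of their SDs. The exceptions were 1 step for Tiparp, where HS (10.2 ± 0.56 FPKM) stood above control (9.03 ± 0.974 FPKM, SD, n = 3 each), and 1 step for Nr1h4, where HS_AOS_FMT (143 ± 5.92 FPKM) stood above AOS (130 ± 11.3 FPKM, SD, n = 3 each). The ends of each order lay further apart. Slc5a12 averaged 183 ± 38.2 FPKM in HS_AOS and 94.7 ± 12.4 FPKM in HS_control_FMT, while Slc10a2 averaged 18.8 ± 5.99 FPKM in HS_AOS_FMT and 31.6 ± 2.22 FPKM in HS_control_FMT (SD, n = 3 each).

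The genes whose log2 levels followed each member most closely over the 18 libraries were named by Pearson's r, as a description that shares libraries and the groups. They were Snupn (0.916), Dtx4 (0.897) and Pi4k2a (0.84) for Slc16a1, and Papss1 (0.904), Acot12 (0.863) and Ttc39c (0.863) for Slc5a8. For Slc5a12 they were Nox4 (0.932), Gtf2i (0.923) and Hmgb1 (0.896), and for Ahr Pik3c3 (0.869), Uggt2 (0.859) and Sfmbt1 (0.847). For Cyp1b1 they were S100a4 (0.879), Cd300c2 (0.871) and Ikbke (0.847), and for Tiparp Arl5b (0.901), Trappc8 (0.899) and Ppp4r3b (0.897). Those named for Nr1h4 were Fmo1 (0.821) and Slc22a4 (0.786), and for Slc51b Slc52a3 (0.878), Pex14 (0.872) and Aldh1a7 (0.835). Slc10a2 had the least close neighbours, Klk1b9 (0.763), Cct5 (0.759) and Tuba1c (0.754). No member was among another member's 3 closest genes.

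Groups that did not overlap were counted beside the same over all genes. In HS_AOS vs HS the count was 2 of 9 members (Slc5a12 and Nr1h4, both higher), against 24.7% of all tested genes. In HS_AOS_FMT vs HS it was 3 of 9 (Slc16a1 and Cyp1b1 lower, Tiparp higher), against 29.5%. In HS_control_FMT vs HS it was 2 of 9 (Slc16a1 and Ahr, both lower), against 25.3%. In HS_AOS_FMT vs HS_control_FMT it was 3 of 9 (Slc5a12 and Ahr higher, Slc10a2 lower), against 29.3%. In AOS vs control it was 1 of 9 (Slc10a2, lower), against 13.1%, and in HS vs control 0 of 9, against 8.53%. The comparisons with HS share the 3 HS libraries, so their counts are not independent.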

How the data were processed

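Kidney RNA was sequenced in 18 libraries of 6 groups of 3. The submitters' processing notes name Bowtie 0.12.2 and the build mm10; how gene values were made, with which annotation and strand setting, is not given in the sources used here. As deposited by the authors, there is 1 table of FPKM values for 19545 genes, in 2 decimals and without counts, so no count test was run. The unit was read from the values: weighted by transcript length, library sums varied by 0.93%, against 4.29% unweighted. A pseudocount of 1 was added and log2 taken. Genes with at least 1 FPKM in 3 libraries (12385) were fitted in limma 3.58.1 (R 4.3.3, trend and robust options, 1 mean per group, 12 residual degrees of freedom). Benjamini and Hochberg adjustment ran over all tested genes, with a threshold of 0.05; scripts were tested on simulated data. All 10 members were named; companion genes were named if they passed, and their levels were described where a role called for it, chosen after their values were seen. One gene close to Nr1h4 is not reported here. The members and the 10 companion lists were chosen with earlier results of these data known. Promoters and positions came from RefSeq tables of GRCm38.p6, the assembly that mm10 names. Alternatives were quantile normalization, the replicate number as a block, no filter, a filter of 5 FPKM, a pseudocount of 0.1, the compared groups alone, no trend option, correction of every library for GC content and transcript length (natural splines with 4 degrees of freedom), that with the block, and leaving out 3 adrenal-rich libraries or each library in turn; for the companion genes' differences from control, leaving out control replicate 3 was chosen after seeing the data. Where 2 libraries were left in a group, they were assumed to vary like the others.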

Additional observations from a re-analysis of the deposited data

How the results depend on the processing

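The count of members called was 0 in each of the 8 tests, and it stayed 0 under all alternatives run in 6 of them. In HS_AOS_FMT vs HS_control_FMT the count of members called was 0, and it was 1 (Slc10a2) after correction for GC content and length, 1 with that correction and the replicate block, and between 0 and 1 with each library left out (1 without control replicate 3 or HS replicate 2). For any difference among the 6 groups the count was 0, and it lay between 0 and 1 with each library left out (Slc5a12 without control replicate 3, Tiparp without HS_AOS replicate 1). The cause was not tested. The replicate block alone called 0 members in every comparison. It was not used in the results because same-numbered libraries of different groups did not deviate together (median correlation -0.009, with 14 of 45 pairs over 0.1, and 5 of 18 libraries closest to their own number). Without the 3 adrenal-rich libraries the count over all genes was 0 in HS_AOS vs HS, 1 in HS_AOS_FMT vs HS and 218 in HS_AOS_FMT vs HS_control_FMT. With the replicate block the count over all genes was 89 in HS_AOS vs HS, against 285 without it, and 276 in HS_AOS_FMT vs HS_control_FMT, against 494. Slc16a12 had adjusted p-values of 0.0651 and 0.0532 with it in HS_AOS vs HS and HS_AOS_FMT vs HS, and passed in 6 and 12 of 28 alternatives. Ptges3 passed in 24 of 28 in HS_AOS_FMT vs HS_control_FMT. Counts over all genes moved widely when 1 library was left out: from 0 to 828 in HS_AOS vs HS, 0 to 619 in HS_AOS_FMT vs HS, 16 to 350 in HS_control_FMT vs HS, 65 to 1143 in HS_AOS_FMT vs HS_control_FMT, 0 to 11 in HS vs control and 0 to 9 in AOS vs control. With read depth unknown, no interval for counting error can be given for Ahr, Cyp1a1 or Cyp1b1, the members nearest the limit of detection.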
